A study of Mus musculus with 12 samples.

Results

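The genes described here encode proteins that carry out or steer pre-mRNA splicing, and they were taken by name from a mouse expression array. A gene belonged to the set when its symbol began with 1 of 9 prefixes (Srsf, Sfrs, Hnrnp, Snrp, Sf3a, Sf3b, U2af, Prpf or Lsm) and at least 1 of its probes was called detected, at a detection p under 0.01, on at least 4 of the 12 arrays. The prefixes matched 76 symbols, and 67 of these passed, out of 9153 genes measured by the same rule. The 67 comprised 18 hnRNP genes, 11 Prpf genes, 11 Lsm genes, 9 SR protein genes, 8 genes of SF3a and SF3b, 7 Snrp genes and 3 U2AF genes. The 9 symbols without a detected probe were Hnrnpa3, Hnrnph2, Lsm11, Lsmem1, Prpf4b, Sf3b1, Snrpb2, Snrpe and Srsf12. Hnrnpa3 and Sf3b1 were detected on 2 arrays and the other 7 on 0, while the members nearest the threshold, Hnrnpu and Hnrnpul1, were detected on 5 and 7. Lsmem1 matches the prefix by its letters alone, since it encodes a membrane protein.

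The cells were MC3T3 sc4, a subclone of a mouse calvarial cell line that serves as a model of osteoblast differentiation, the process by which precursor cells become bone-forming cells. At confluence they were given osteogenic medium containing ascorbic acid (50 µg/ml) and beta glycerol phosphate (4 mM), and on day 4 they received the histone deacetylase inhibitor SAHA (vorinostat) at 20 µM or its solvent DMSO. There were 3 groups of 4 arrays each, namely DMSO (arrays 1 to 4), SAHA for 2 h (arrays 5 to 8) and SAHA for 6 h (arrays 9 to 12). All groups shared the cell line, the medium and a collagenase digestion of 40 min before harvest, and the study asked how deacetylase inhibition alters expression in these cells. The labels do not say how long the DMSO cells were held, so time in culture after the medium change and time in SAHA cannot be told apart. Nothing in them states that a group's 4 arrays stand for different cultures, and the p-values therefore reflect array-to-array spread that may be technical.

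Splicing removes introns in ordered steps on the spliceosome, a machine built from small nuclear ribonucleoproteins (snRNPs), each an RNA bound by a ring of Sm or Lsm proteins and by its own specific proteins. SR proteins mostly promote the use of exons, hnRNP proteins often oppose them or coat the nascent transcript, U2AF marks the 3′ splice site, and SF3a and SF3b hold the U2 snRNP at the branch point. Many genes for SR and hnRNP proteins can themselves be spliced into unproductive transcripts, by which the proteins limit their own amount.

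Between 14904 and 16065 probes were detected per array, and arrays of a group correlated at r of 0.993 to 0.997 with no identical values shared. Of 8 osteoblast markers 6 were measured, all detected on 12 arrays, whereas 0 of 5 adipocyte and 0 of 4 endothelial markers were measured. Of 5 chondrocyte markers 3 were measured, 2 of them detected on all 12 arrays. Of 5 skeletal muscle markers 3 were measured, 1 of them on all 12. The only macrophage or blood marker measured was the dim Csf1r. The chondrocyte marker Sox9 had a mean log2 intensity of 11.61 in DMSO, beside 8.33 (Phospho1) to 15.22 (Col1a1) for the 6 osteoblast markers. Levels below are log2 intensities after background correction and quantile normalization, and a change is the difference of group means on that scale with its limma standard error. A gene rose or fell where limma's Benjamini-Hochberg adjusted p over all 9153 genes was under 0.05. Both SAHA groups were set against the same 4 DMSO arrays. The normalization removes any shift shared by all genes, and in a bulk sample fewer cells of a kind and less RNA per cell cannot be told apart.

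After 2 h of SAHA 11 of the 67 genes rose, 21 fell and 35 did not pass, so that 47.8% changed beside 58.6% of all genes. Rises made up 16.4% of the members beside 27.8% of all genes, and falls made up 31.3% beside 30.7%. The changes were small, from -0.85 for Srsf6 to 0.55 for Prpf39 with a median of -0.06, beside a median of -0.02 over all genes. Of the 67 members 0 reached a 2-fold change, while 633 of all 9153 genes passed with a change that large. Scaling the arrays by their medians instead moved the median of all genes by 0.12 and left 12 members higher and 5 lower, so 16 of the 32 calls, all of them falls, were lost.

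After 6 h 19 genes rose, 33 fell and 15 did not pass, and the 77.6% that changed lay beside 77.4% of all genes. By direction, 49.3% of the members fell beside 38.5% of all genes, and 28.4% rose beside 38.9%. The members ran from -1.51 for U2af2 to 1.09 for Lsm14b with a median of -0.18, beside 0.01 over all genes. U2af2, U2af1l4, Srsf6 and Lsm2 were at least 2-fold lower and Lsm14b at least 2-fold higher. These are 5 of 67 members, while 1899 of all 9153 genes passed with a change that large. Between 2 h and 6 h 19 members rose and 29 fell (71.6% beside 62.7% of all genes; 28.4% beside 34.4% for rises and 43.3% beside 28.4% for falls). Under median scaling those counts were 4 and 29.

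**Figure D1:**
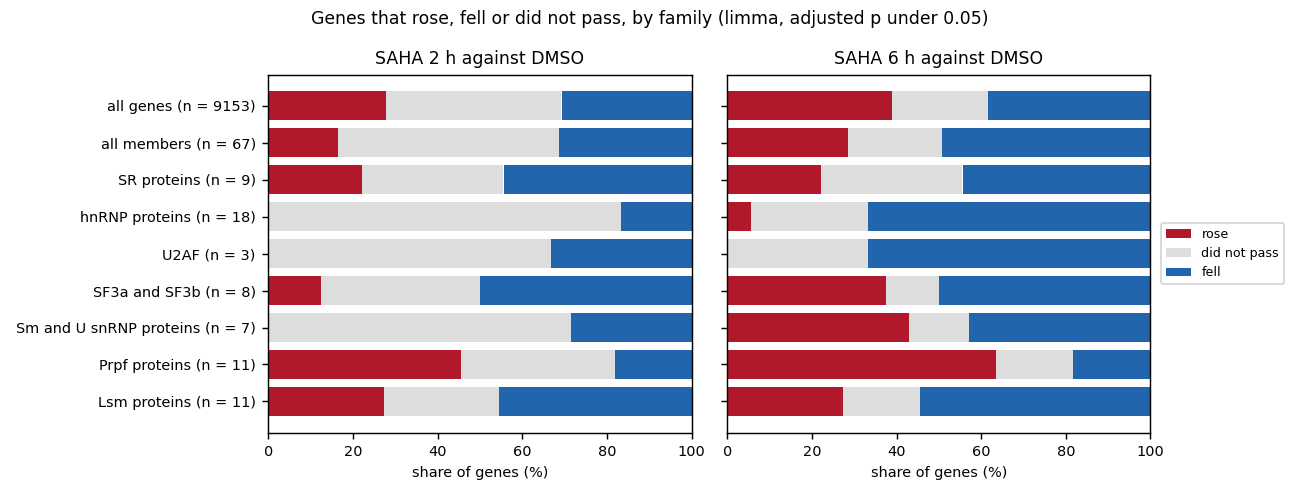
Share of genes (%, horizontal axis) that rose, did not pass or fell against DMSO after 2 h (left) and 6 h (right) of SAHA, for all 9153 genes, all 67 members and each family. At 6 h falls make up 66.7% of the 18 hnRNP genes and rises 63.6% of the 11 Prpf genes, beside 38.5% and 38.9% of all genes.

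Among the SR proteins, which bind exons through an RNA recognition motif and contact the spliceosome through an arginine-serine tail, 4 of 9 genes fell and 2 rose at each time. The falls, 44.4%, lay beside 30.7% of all genes at 2 h and 38.5% at 6 h. The rises, 22.2%, lay beside 27.8% and 38.9%. Srsf6, a broad activator of exon inclusion, read 12.57, 12.33, 12.42 and 12.28 in DMSO, 11.60, 11.42, 11.67 and 11.53 after 2 h, and 11.19, 11.15, 11.14 and 11.17 after 6 h. On this probe, the brighter of 2, the 3 groups did not overlap and each step in time was downward. Its change was -0.85 ± 0.07 (SE, n = 4 per group, limma adjusted p = 2.34e-07) at 2 h and -1.24 ± 0.07 (adjusted p = 1.61e-09) at 6 h, a 2.36-fold fall. The step of -0.39 between 2 h and 6 h did not pass with the mean of both probes (-0.19, limma adjusted p = 0.0635). The dimmer probe gave 0.01 for it, but was detected on only 2 arrays at each SAHA time. So near background a further fall may not show, which also limits the mean of both probes. Srsf4, a close relative, fell by 0.78 at 2 h and lay 0.59 below DMSO at 6 h, so it rose again by 0.19 ± 0.05 between the times (limma adjusted p = 0.00719), a rise that did not pass under median scaling. Srsf5, another member with 2 RNA recognition motifs, fell by 0.55 at 2 h and stood at -0.48 at 6 h.

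Srsf1, the best studied SR protein and a factor in both constitutive and alternative splicing, followed a later course. It read 13.99, 13.68, 13.77 and 13.76 in DMSO, 13.61, 13.45, 13.62 and 13.61 after 2 h, and from 12.93 to 13.02 after 6 h, with no overlap between groups. The fall was 0.23 ± 0.07 at 2 h, which did not pass under median scaling, and 0.81 ± 0.07 at 6 h (limma adjusted p = 9.75e-08). Srsf3, the smallest SR protein and one that also takes part in mRNA export, moved the other way at first: it read 10.57, 10.50, 10.75 and 10.44 in DMSO, 11.04, 11.04, 10.88 and 10.92 after 2 h, and 10.35, 10.56, 10.54 and 10.37 after 6 h. The 2 h arrays stood above both other groups, which overlapped. The rise of 0.41 ± 0.08 at 2 h (adjusted p = 0.00047) was followed by a fall of 0.51 ± 0.08 from 2 h to 6 h (limma adjusted p = 5.94e-05), and the 6 h level did not pass against DMSO (-0.11, adjusted p = 0.211).

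Srsf11, an SR-related protein found with U2AF, rose by 0.40 at 2 h and 0.32 at 6 h on the brightest of 4 probes, which did not all move together. Srsf9 rose by 0.24 at 6 h only, with a difference from 2 h of 0.25 (limma adjusted p = 0.00152; not passed under median scaling). Srsf2, the exon-binding factor also known as SC35, gave 0.09 and 0.01 with overlapping arrays, and Srsf10 gave -0.02 and 0.16. Neither of these passed at either time. Srsf7 had no detected probe with 1 symbol and was not analysed here.

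The U2AF genes held the largest fall of the set. U2af2 encodes the large subunit, which binds the polypyrimidine tract ahead of the 3′ splice site. It read 9.40, 9.60, 9.79 and 9.69 in DMSO, 9.21, 9.20, 9.42 and 9.43 after 2 h, and 7.92, 8.21, 8.10 and 8.22 after 6 h. The DMSO and 2 h arrays overlapped, and every 6 h array lay below the lowest 2 h array. The change was -0.30 ± 0.10 at 2 h (limma adjusted p = 0.0135, not passed under median scaling) and -1.51 ± 0.10 at 6 h (adjusted p = 4.02e-09), a 2.84-fold fall, of which -1.20 ± 0.10 came between 2 h and 6 h.

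U2af1l4 encodes a paralog of the small subunit, the protein that contacts the AG at the intron end. It read 7.65, 7.74, 7.62 and 7.80 in DMSO, 7.14, 7.66, 7.38 and 7.56 after 2 h, and 6.47, 6.34, 6.82 and 6.24 after 6 h. It fell 2.36-fold by 6 h (-1.24 ± 0.13, limma adjusted p = 6.11e-07), and its 2 h value of -0.27 did not pass (adjusted p = 0.0787). The 2 h value did pass with array 6 left out (-0.35, limma adjusted p = 0.0379) or array 11 left out (-0.27, 0.0351). It also passed without background correction (-0.18, limma adjusted p = 0.0439) and with only the 8 arrays compared (-0.27, 0.0443), but not under median scaling. U2af1, the small subunit itself, read 9.84 to 10.06 in DMSO, 9.82 to 10.19 after 2 h and 9.66 to 9.94 after 6 h, overlapping throughout, with changes of 0.00 and -0.11 that did not pass.

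**Figure D2:**
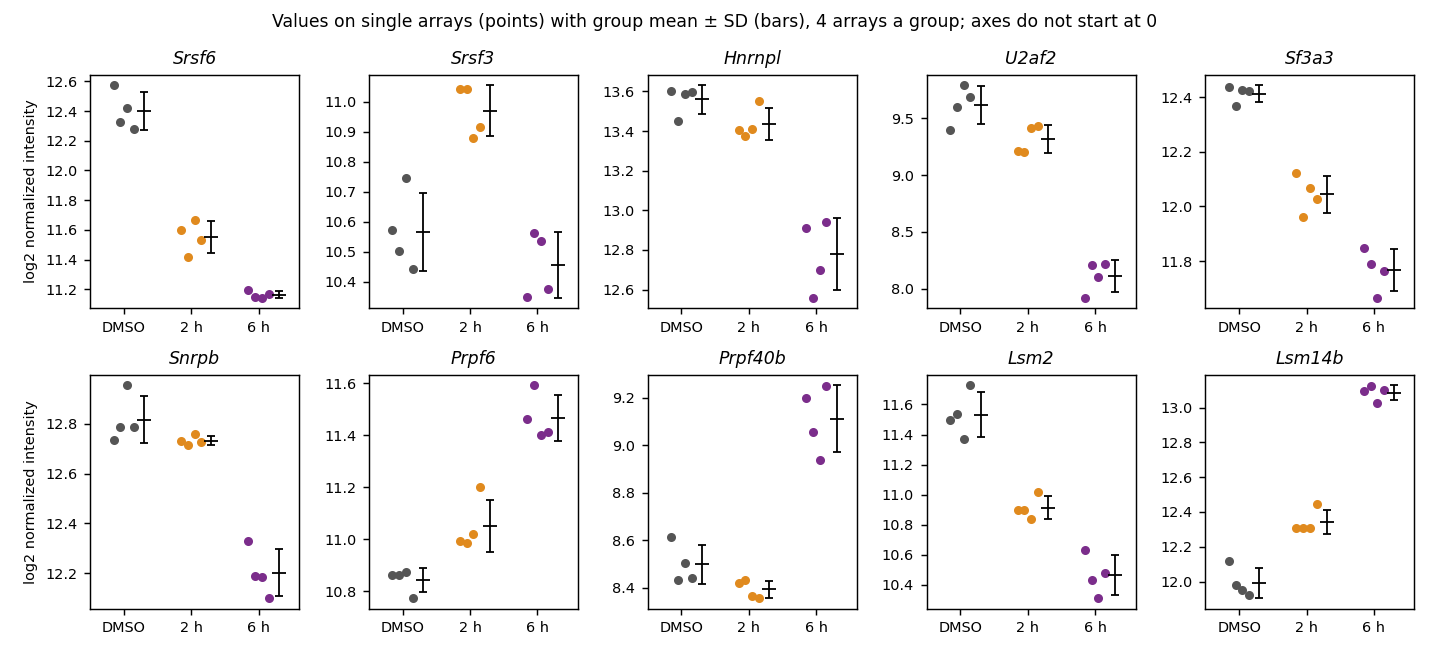
Log2 normalized intensity (vertical axes, not starting at 0) of 10 member genes on single arrays in DMSO and after 2 h and 6 h of SAHA; points are arrays, and the mark beside them is the group mean ± SD of 4 arrays. U2af2 runs from 9.40 to 9.79 in DMSO and from 7.92 to 8.22 after 6 h, Srsf3 is highest after 2 h, and Lsm14b runs from 11.92 to 12.12 in DMSO and from 13.03 to 13.12 after 6 h.

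SF3a and SF3b are the multi-subunit parts of the U2 snRNP that recognise the branch point. All 3 SF3a genes fell at both times, beside 25% of all genes. Sf3a3 read 12.44, 12.37, 12.42 and 12.42 in DMSO, 12.12, 11.96, 12.07 and 12.03 after 2 h, and 11.85, 11.79, 11.67 and 11.76 after 6 h, stepping down without overlap. Its change was -0.37 ± 0.06 at 2 h and -0.65 ± 0.06 at 6 h (limma adjusted p = 1.13e-07). Sf3a2 lay at -0.60 ± 0.12 and -0.63 ± 0.12, reached by 2 h with no further change that passed. Sf3a1 fell by 0.30 at 2 h and by 0.16 at 6 h on its brighter probe. Its dimmer probe moved the opposite way, and with the mean of both probes the values were 0.04 and 0.07. Under median scaling the 2 h calls of Sf3a1 and Sf3a3 and the 6 h call of Sf3a1 did not pass.

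Of the 5 SF3b genes measured 1 rose and 1 fell at 2 h (20% each, beside 27.8% and 30.7% of all genes). At 6 h 3 rose (60%, beside 38.9%) and 1 fell (20%, beside 38.5%). Sf3b2, which contacts RNA near the branch point, was the one that fell, by 0.20 ± 0.06 at 2 h (not passed under median scaling) and 0.51 ± 0.06 at 6 h (limma adjusted p = 2.3e-06). Sf3b3, a large scaffold of repeated blades, rose by 0.24 ± 0.07 and then 0.36 ± 0.07, and its step of 0.13 between the times did not pass (adjusted p = 0.123), although it did on the authors' values with the replicate number as a block (0.15, limma adjusted p = 0.0223). Sf3b6, the small protein that touches the branch adenosine, read 8.40, 8.67, 8.38 and 8.46 in DMSO and 8.98, 8.89, 9.01 and 8.79 after 6 h, a rise of 0.44 ± 0.09. Sf3b5 rose by 0.20 at 6 h (not passed under median scaling) and Sf3b4 gave 0.07 and 0.12 without passing.

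The promoters of these genes are shown because 6 of 6 with a RefSeq promoter entry carried the same letters, the ETS-type motif CCGGAAG or its reverse complement, in the 250 bases before the gene start. The motif was looked at after the counts for all families had been seen. It was searched on both strands and stood in 14 of the 56 member promoters matched, or 25%. These 14 include the 6 SF3 promoters for which the motif was chosen, so the 25% is not separate from that choice. The motif stood in 15.1% of the 7475 matched promoters of all tested genes and 7.05% of all 27025 promoters. Both the SF3 genes that fell and those that rose carried it, and a match of letters is not a binding site. Each sequence runs 5′ to 3′ on the gene's strand, with up to 20 bases on each side up to the gene start, on build GRCm38.p6, and capitals mark the motif.
Sf3a1, chr11:4160327-4160353, plus strand: gaaacggcgagagggcgggaCCGGAAG
Sf3a2, chr10:80798639-80798685, plus strand: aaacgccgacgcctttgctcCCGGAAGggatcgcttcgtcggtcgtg
Sf3a3, chr4:124714751-124714797, plus strand: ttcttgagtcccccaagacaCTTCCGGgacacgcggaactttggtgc
Sf3b2, chr19:5295458-5295488, minus strand: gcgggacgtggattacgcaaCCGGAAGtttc
Sf3b3, chr8:110847006-110847052, minus strand: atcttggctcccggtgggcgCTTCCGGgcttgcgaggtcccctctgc
Sf3b6, chr12:4817518-4817564, plus strand: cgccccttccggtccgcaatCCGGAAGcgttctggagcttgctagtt
Sf3b6 held the motif at both 85 and 70 bases before its start, and the second is capitalised. The motif began 7 bases before the start in Sf3a1, 11 in Sf3b2, 76 in Sf3a2, 90 in Sf3a3 and 229 in Sf3b3. The GC box GGGCGG stood in 62.5% of member promoters beside 62.1% of those of tested genes, and the CCAAT box CCAAT in 51.8% beside 37.2%. Median GC content was 60% beside 60.4%.

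**Figure D3:**
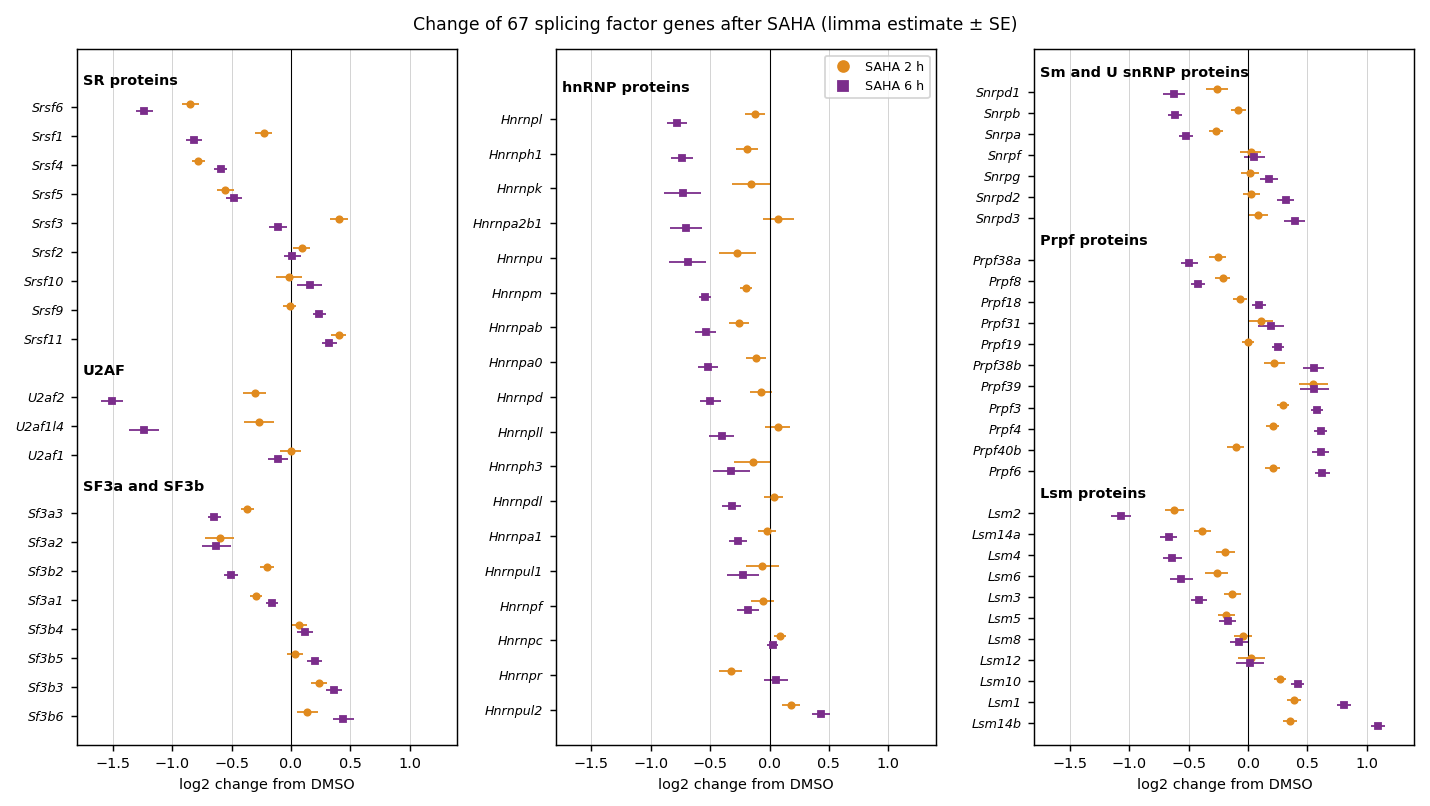
Log2 change from DMSO (horizontal axis, limma estimate ± SE) of the 67 genes after 2 h (circles) and 6 h (squares) of SAHA, grouped by family and ordered by the 6 h value. Most hnRNP squares lie left of zero, from -0.78 for Hnrnpl, while Prpf squares reach 0.63 for Prpf6.

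The hnRNP proteins package nascent transcripts and often repress exon use. At 2 h 3 of 18 genes fell (16.7%, beside 30.7% of all genes) and 0 rose (beside 27.8%), and none of the 3 falls passed under median scaling. At 6 h 12 fell (66.7%, beside 38.5%) and 1 rose (5.56%, beside 38.9%). The family median at 6 h was -0.45 beside 0.01 for all genes. Between the times 12 fell (66.7%, beside 28.4%) and 2 rose (11.1%, beside 34.4%). Hnrnpl, a repressor that binds CA-rich RNA, read 13.60, 13.45, 13.59 and 13.60 in DMSO, 13.41, 13.37, 13.41 and 13.55 after 2 h, and 12.91, 12.56, 12.70 and 12.94 after 6 h. The 6 h arrays lay apart from both other groups, which overlapped. Its changes were -0.12 (adjusted p = 0.22) and -0.78 ± 0.08 (limma adjusted p = 9.77e-07). On the authors' values Hnrnph1 passed at 2 h (-0.21), both without a block (limma adjusted p = 0.036) and with the replicate number as a block (0.00309). Same-numbered DMSO and 2 h samples deviate together in those values. With the block Hnrnpl at -0.16 (limma adjusted p = 0.0343, 0.0913 without it) and Hnrnpul2 at 0.16 (0.0419, 0.06 without it) also passed.

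Hnrnph1, which binds runs of G, and Hnrnpk, which binds runs of C, lay at -0.74 ± 0.09 and -0.73 ± 0.16 at 6 h. Hnrnpa2b1 read 11.51, 11.56, 11.12 and 11.35 in DMSO, 11.66, 11.70, 11.23 and 11.24 after 2 h, and 10.94, 10.67, 10.51 and 10.62 after 6 h, a fall of 0.70 ± 0.13 after a 2 h value of 0.07 that did not pass. Its relative Hnrnpa1, the classic antagonist of Srsf1, fell by 0.27 ± 0.08 at 6 h (adjusted p = 0.00648, not passed under median scaling). Hnrnpm fell at both times, by 0.20 and 0.55, and Hnrnpab by 0.26 and 0.54, where the 2 h call of Hnrnpab did not pass without array 1, 2 or 8 (adjusted p up to 0.0626). The step of Hnrnpab between the times, -0.28, did not pass on the authors' values (-0.16), either without the block (limma adjusted p = 0.0784) or with it (0.0513). Hnrnpa0, Hnrnpd, Hnrnpdl and Hnrnpll fell at 6 h by 0.52, 0.50, 0.32 and 0.40.

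Hnrnpu, a scaffold protein that binds chromatin-associated RNA, was detected on 3 DMSO arrays, 2 arrays at 2 h and 0 at 6 h. It passed as a fall at 6 h, and since no 6 h array was above background the size is a bound, at least 1.17-fold lower (measured means 6.33 and 5.64, limma adjusted p = 0.00102). Hnrnpr, a dim gene, was the one hnRNP gene that fell at 2 h and rose afterwards: -0.33 ± 0.10 at 2 h, 0.05 at 6 h and 0.38 ± 0.10 from 2 h to 6 h (limma adjusted p = 0.00393), neither call passing under median scaling. Hnrnpul2 was the single member of the family that rose at 6 h (0.43 ± 0.08). Hnrnpc, whose protein forms the tetramer at the core of hnRNP particles, read 13.97 to 14.03 in DMSO, 14.05 to 14.12 after 2 h and 13.98 to 14.08 after 6 h and did not pass (0.09 and 0.03). Hnrnpf, Hnrnph3 and Hnrnpul1 did not pass at either time.

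The Snrp genes encode the Sm ring shared by most spliceosomal snRNPs, and the A protein of the U1 snRNP. Of the 7 genes 2 fell (28.6%, beside 30.7% of all genes) and 0 rose (beside 27.8%) at 2 h. At 6 h 3 fell (42.9%, beside 38.5%) and 3 rose (42.9%, beside 38.9%), shares near those of all genes. Of the ring's own subunits Snrpb and Snrpd1 fell at 6 h, while Snrpd2, Snrpd3 and Snrpg rose. Snrpb, which encodes SmB and is itself subject to splicing feedback, read 12.73, 12.79, 12.95 and 12.79 in DMSO, 12.73, 12.71, 12.76 and 12.73 after 2 h, and 12.33, 12.19, 12.19 and 12.10 after 6 h. Only the 6 h arrays stood apart, with a fall of 0.62 ± 0.06 (limma adjusted p = 6.16e-07). Snrpd1 (SmD1) fell by 0.26 ± 0.09 and 0.62 ± 0.09, the 2 h call being lost without array 1, 2, 5, 6 or 7 (adjusted p up to 0.093) and under median scaling.

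Snrpd2 and Snrpd3, which encode SmD2 and SmD3, rose at 6 h by 0.32 ± 0.07 and 0.39 ± 0.08. Snrpd3 read 13.33, 13.19, 13.17 and 13.16 in DMSO and 13.68, 13.53, 13.50 and 13.70 after 6 h, without overlap. Snrpg (SmG) gave 0.18 at 6 h with adjusted p = 0.0465, a call lost without any 1 of 8 arrays (1 to 6, 9 and 12; adjusted p up to 0.126) and under median scaling. It did not pass at 2 h on that probe (0.01), but with the mean of its probes it rose at 2 h by 0.44 (limma adjusted p = 0.000742). On its brighter probe Snrpg's step of 0.16 between the times did not pass (limma adjusted p = 0.0743). On the authors' values the step (0.17) passed without the block (limma adjusted p = 0.0493) and with it (0.0247). Snrpf (SmF) did not pass. Snrpa, which encodes that U1 protein, fell by 0.27 ± 0.06 at 2 h, not passed under median scaling, and by 0.53 ± 0.06 at 6 h.

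The Prpf genes, named for yeast pre-mRNA processing mutants, leaned upward. At 2 h 5 of 11 rose (45.5%, beside 27.8% of all genes) and 2 fell (18.2%, beside 30.7%). At 6 h 7 rose (63.6%, beside 38.9%) and 2 fell (18.2%, beside 38.5%), with a median of 0.55. Prpf3, Prpf4, Prpf6 and Prpf31 encode proteins of the U4/U6.U5 tri-snRNP, and 3 of these 4 rose at both times, beside 24.5% of all genes. Prpf6, the bridge between U5 and U4/U6, read 10.86, 10.86, 10.87 and 10.77 in DMSO, 10.99, 10.99, 11.02 and 11.20 after 2 h, and 11.46, 11.59, 11.40 and 11.41 after 6 h. The groups did not overlap, and the rises were 0.21 ± 0.06 and 0.63 ± 0.06 (limma adjusted p = 6.67e-07). Prpf3 rose by 0.30 and 0.58, Prpf4 by 0.21 and 0.61, and the dim Prpf31 gave 0.11 and 0.19 without passing.

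Prpf8, the scaffold at the heart of the spliceosome that positions the catalytic RNA, moved the other way. It read 11.82, 11.79, 11.90 and 11.74 in DMSO, 11.47, 11.59, 11.71 and 11.63 after 2 h, and 11.36, 11.35, 11.47 and 11.38 after 6 h, with the DMSO arrays above all others. The falls were 0.21 ± 0.06 (not passed under median scaling) and 0.42 ± 0.06 (limma adjusted p = 2.55e-05). Prpf38a fell by 0.26 (not passed under median scaling) and 0.49. Its paralog Prpf38b rose by 0.55 ± 0.09 at 6 h, and its 2 h value of 0.22 lost its call without any 1 of 8 arrays (1 to 6, 11 and 12; adjusted p up to 0.147).

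Prpf40b, a relative of a yeast U1 snRNP protein, rose only late. It read 8.61, 8.43, 8.50 and 8.44 in DMSO, 8.42, 8.43, 8.37 and 8.36 after 2 h, and 9.20, 9.05, 8.94 and 9.25 after 6 h. Its change was -0.11 at 2 h (adjusted p = 0.222) and 0.61 ± 0.07 at 6 h (limma adjusted p = 2.37e-06), and the step from 2 h to 6 h was 0.72 ± 0.07. Prpf39, related to another yeast U1 snRNP protein, reached 0.55 by 2 h and stood at 0.56 at 6 h. Prpf19, the ubiquitin ligase of the complex that bears its name, rose by 0.25 ± 0.05 at 6 h, and Prpf18, a second-step factor, did not pass against DMSO.

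The Lsm genes hold 2 related rings and several proteins outside them. At 2 h 3 of the 11 genes rose (27.3%, beside 27.8% of all genes) and 5 fell (45.5%, beside 30.7%). At 6 h 3 rose (27.3%, beside 38.9%) and 6 fell (54.5%, beside 38.5%). Lsm2 to Lsm6 belong both to the nuclear ring with Lsm8, which binds U6 RNA, and to the cytoplasmic ring with Lsm1, which takes part in mRNA decay. Of these 5 genes 4 fell at 2 h (80%, beside 30.7% of all genes) and 5 at 6 h (100%, beside 38.5%). Lsm2 read 11.50, 11.53, 11.37 and 11.73 in DMSO, 10.90, 10.90, 10.84 and 11.02 after 2 h, and 10.63, 10.43, 10.31 and 10.48 after 6 h. Without overlap, it fell by 0.62 ± 0.08 and then stood at -1.07 ± 0.08, 2.10-fold lower (limma adjusted p = 3.74e-08). At 6 h Lsm4, Lsm6 and Lsm3 lay at -0.64, -0.56 and -0.41, and Lsm5 at -0.17.

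Several of these calls were close to the threshold. At 2 h Lsm4, Lsm5 and Lsm6 lost their calls without 7, 9 and 6 of the 12 arrays taken singly (adjusted p up to 0.139 without array 2, 0.145 without array 7 and 0.103 without array 6) and under median scaling. Lsm5 at 6 h lost its call without 7 arrays (up to 0.118, without array 1) and under median scaling. Lsm1 and Lsm8 are the subunits that distinguish the rings. Lsm1 read 12.37, 12.46, 12.45 and 12.44 in DMSO, 12.70, 12.81, 12.84 and 12.90 after 2 h, and 13.19, 13.15, 13.27 and 13.33 after 6 h, while Lsm8 read 11.87 to 12.05, 11.84 to 12.08 and 11.74 to 12.05. Lsm1 rose at each step, by 0.38 ± 0.06 at 2 h and 0.80 ± 0.06 against DMSO at 6 h (limma adjusted p = 2.04e-08). Lsm8 overlapped throughout and did not pass (-0.04 and -0.08). The difference between the 2 genes' changes was not tested.

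Lsm14a and Lsm14b, paralogs that bind RNA in cytoplasmic granules rather than in a spliceosomal ring, moved in opposite directions. Lsm14b read 12.12, 11.98, 11.95 and 11.92 in DMSO, 12.31, 12.31, 12.31 and 12.45 after 2 h, and 13.09, 13.12, 13.03 and 13.10 after 6 h. It rose by 0.35 ± 0.06 and 1.09 ± 0.06 (limma adjusted p = 7.73e-10), the largest rise of the set at 6 h. Lsm14a read 12.31, 12.03, 12.31 and 12.21 in DMSO and 11.60, 11.49, 11.57 and 11.51 after 6 h, and it fell by 0.39 (not passed under median scaling) and 0.67. Lsm10, which replaces an Sm protein in the U7 snRNP of histone mRNA processing, rose by 0.27 and 0.42. Lsm12 did not pass, and Lsm11, the partner of Lsm10, was not analysed here.

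Set side by side over time, 30 of the 67 genes changed at both times in 1 direction (10 up, 20 down) and 0 changed in opposite directions. These are 14.9% up and 29.9% down, beside 24.5% and 25% of all genes, of which 2.27% changed in opposite directions. Under median scaling 16 members changed at both times (11 up, 5 down), 23.9% beside 39% of all genes. Of the 30 genes above, 22 also passed between 2 h and 6 h in the direction they had taken (7 up, 15 down). Under median scaling the steps of Lsm10, Prpf3, Prpf38b and Prpf4 did not pass, all of them rises. A further 22 passed only at 6 h (9 up, 13 down, 32.8% beside 25.5% of all genes). Under median scaling that count was 32 (47.8%, beside 28.9%). Of the 22 in the main setting 21 also passed between the times (8 up, 13 down), Snrpg being the exception. Under median scaling the steps of Hnrnpul2, Prpf19, Sf3b5, Sf3b6, Snrpd2, Snrpd3 and Srsf9 did not pass, again all rises. Between the times 62.7% of all genes changed in either direction, and the share within each of these 2 classes was not computed for all genes. Srsf3 and Hnrnpr passed at 2 h and not at 6 h (2.99%, beside 6.71% of all genes), and 13 genes (19.4%, beside 15.9% of all genes) passed at neither time. Both times were read against 1 set of DMSO arrays, so these counts are not independent.

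Of the 67 genes 37 had at least 2 detected probes, which allowed a test of whether probes of 1 gene moved differently (limma's diffSplice, each probe against the other probes of its gene, adjusted over 8449 probes of 3466 genes). At 2 h 3 of the 37 genes (8.11%, beside 9.92% of all such genes) held a probe that differed, at 6 h 8 (21.6%, beside 15.3%), and between 2 h and 6 h 2 (5.41%, beside 11.4%). In probes these were 6, 13 and 3 of 99, beside 7.23%, 11.9% and 8.59% of all probes. Where a gene has 2 probes a difference marks both. The counts moved with the processing. At 6 h 6 member probes differed under median scaling, 7 without array 9, 8 without array 1, 2, 4 or 12, and 21 on the authors' values with the block. Between 2 h and 6 h those values gave 7, and 14 with the block. Probes can target different exons or transcript ends, and their positions were not used here.

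The differing genes included several SR and snRNP genes. At 6 h 3 of the 4 Srsf11 probes lay at 0.27, 0.30 and 0.32, and the one that differed, detected on 6 arrays, lay at -0.24 (adjusted p = 0.00371). At 2 h the Srsf11 probes read 0.37, 0.01, 0.40 and 0.01, and the second of these differed in its step between the times, 0.30 (adjusted p = 0.0305). Srsf6 had a second probe that was detected on 4 DMSO arrays and on 2 arrays at each SAHA time, and it read -1.68 at 2 h and -1.67 at 6 h beside -0.85 and -1.24 for the brighter probe (adjusted p = 0.000233 and 0.0439). The 2 probes of Sf3a1 took opposite signs, -0.30 for the bright probe and 0.38 for the dim one at 2 h (adjusted p = 0.00126). Snrpa's probes agreed in direction at 6 h but differed in size, -0.53 beside -1.33 (adjusted p = 0.000755).

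At 6 h Hnrnpab's probes read -0.54 and -1.10, and Sf3b6's 0.44 and 0.98. Lsm6 had 3 probes at -0.56, -0.85 and -0.89, all downward. Hnrnpk had 2 probes at -0.73 and -0.76 and a dim probe at 0.04 that was detected on 8 arrays. For Snrpg the 2 h difference lay between 0.01 on the bright probe and 0.87 on a dim one (adjusted p = 0.00207).

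**Figure D4:**
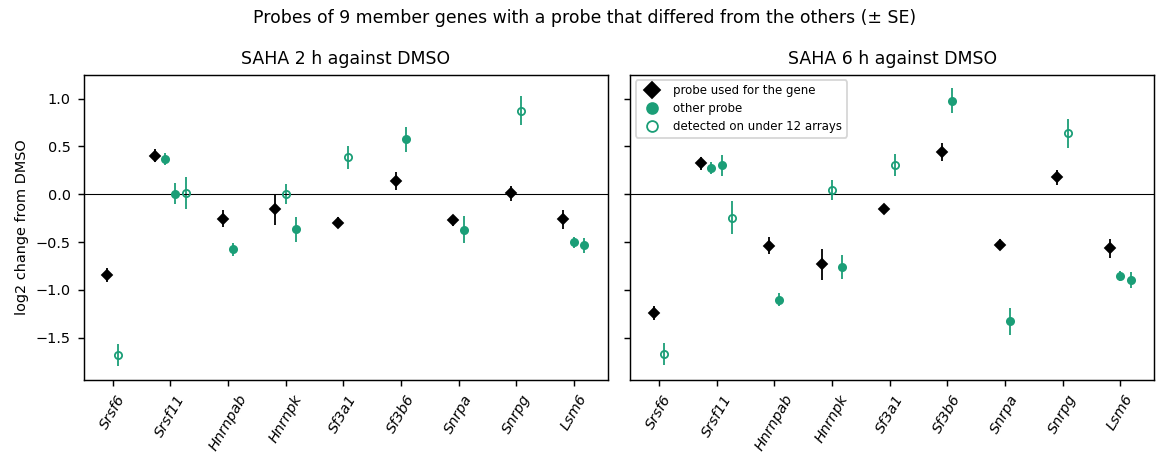
Log2 change from DMSO (vertical axis, ± SE) of each detected probe of 9 genes in which a probe differed from the others in at least 1 comparison, after 2 h (left) and 6 h (right) of SAHA. Diamonds mark the probe used for the gene and open circles probes detected on fewer than 12 arrays; the Sf3a1 probes lie on opposite sides of zero.

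Splicing genes outside the prefixes were read from 8 textbook lists, of which 128 of 158 genes were measured. At 2 h 30 rose and 49 fell (median -0.08), and at 6 h 42 rose and 53 fell (median -0.08), so 61.7% and 74.2% changed beside the 58.6% and 77.4% of all genes. The list genes were not read singly under median scaling, which kept 16 of the 32 member calls at 2 h. Their small changes at 2 h carry that limit. Of the alternative splicing regulators 19 of 29 fell (65.5%, beside 38.5% of all genes) and 6 rose (20.7%, beside 38.9%) at 6 h, with a median of -0.39. In that list Rbmx, an hnRNP-like protein encoded on the X chromosome, stood at -0.28 and -1.85 (limma adjusted p = 8.55e-12 at 6 h). Rbm38, an RNA-binding protein induced by p53, rose by 2.98 and 2.75, or 7.86-fold at 2 h.

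In the SMN complex and its partners, which load Sm rings onto snRNAs, 8 of 16 rose and 2 fell at 6 h (50% and 12.5%, beside the same 38.9% and 38.5% of all genes, which are the background of every list at 6 h). Snupn, the importin adaptor that returns snRNPs to the nucleus, rose by 0.26 and 1.49, and Gemin5, which recognises the snRNA, by 0.39 and 1.31. Among kinases and phosphatase partners of SR proteins 4 of 8 fell (50%) and 3 rose (37.5%) at 6 h. Srpk2, an SR protein kinase, rose by 0.41 and 1.22, and Dyrk1a, a kinase of nuclear speckles, fell by 0.95 and 1.69.

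Of the SR-related coactivators 9 of 21 fell (42.9%) and 5 rose (23.8%) at 6 h, among them Pnisr, which fell by 0.94 and 1.27, and Srek1, which was detected on 4 DMSO arrays and on 0 at 6 h and so was at least 1.37-fold lower (measured means 6.55 and 5.58, limma adjusted p = 2.58e-07). In the Prp19 complex and second-step list 5 of 14 rose (35.7%) and 4 fell (28.6%) at 6 h, Cwc22, which places the exon junction complex, at -1.05 and -1.08 and Crnkl1 at 0.66 and 1.12. Of the helicases 5 of 9 fell (55.6%) and 1 rose (11.1%), with Dhx38, which acts before the second step, at -0.70 and -1.30 and Ddx39b at -0.33 and -0.59. All of these named values passed the test.

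Of the other snRNP-specific proteins 6 of 14 rose (42.9%) and 5 fell (35.7%) at 6 h. Cd2bp2, a U5 snRNP assembly factor, fell by 0.99 and 0.92, and Usp39, a tri-snRNP protein, rose by 0.43 and 0.82. For the exon junction complex and mRNA export 8 of 17 rose (47.1%) and 5 fell (29.4%), with the export factors Alyref and Thoc7 falling by 1.21 and 1.08 at 6 h after falls of 0.18 and 0.17 at 2 h.

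**Figure D5:**
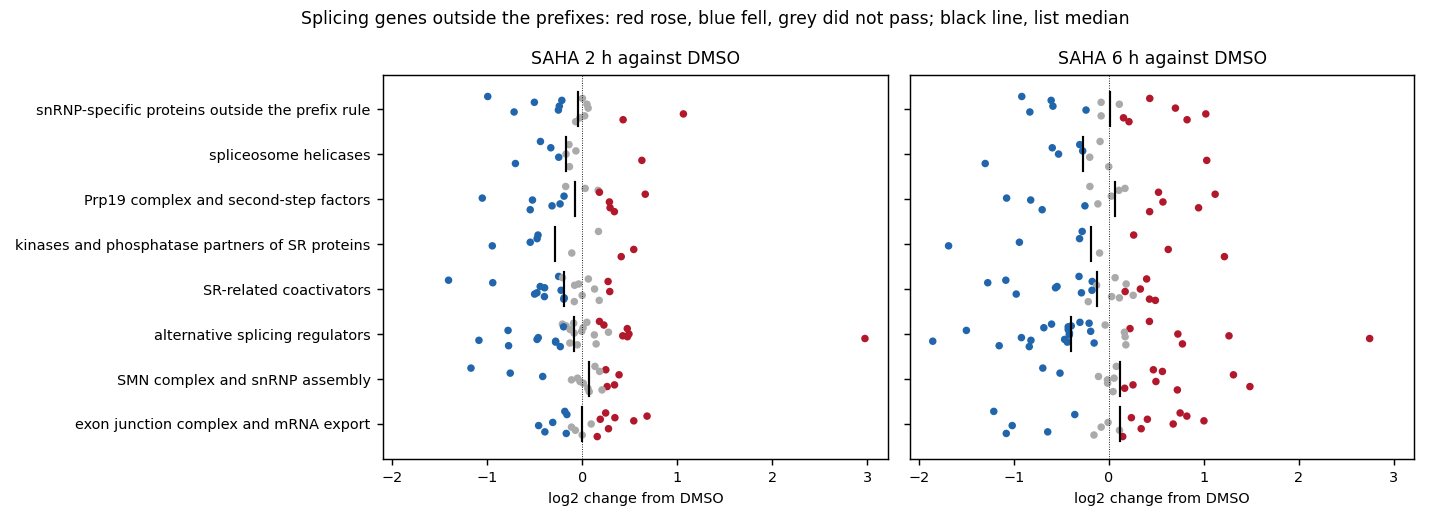
Log2 change from DMSO (horizontal axis) of 128 splicing genes outside the prefixes, by list, after 2 h (left) and 6 h (right) of SAHA; red points rose, blue fell, grey did not pass, and the black line is the list median. The alternative splicing regulators have a 6 h median of -0.39, with Rbm38 at 2.75 far to the right.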

How the data were processed

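RNA of 12 samples was labelled from 200 ng of total RNA and read on an Illumina mouse BeadChip, 1 array per sample. The deposited table gives, per the file headers, a non-normalized intensity and a detection p-value for each of 45281 probes. A second deposited table holds intensity after the authors' own normalization, linear by its values with nearly equal column medians, and was taken to log2 here. Its method, software and genome build are not given in the sources used here. All columns of per-sample values were used.

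From the intensities, background was corrected by normal-exponential fitting with negative-control moments inferred from the detection p-values (offset 16), followed by quantile normalization and log2 (limma 3.58.1, R 4.3.3). The offset shrinks the changes of dim genes, and the number of arrays limits the precision. Of the probes 34885 had 1 gene symbol, 18 several and 10378 none; 34807 matched RefSeq by gene ID and 0 symbols were updated. A probe was kept when detected (p under 0.01) on at least 4 arrays, leaving 9153 genes, each represented by its brightest kept probe. Group means were compared by limma over all 12 arrays with Benjamini-Hochberg adjustment, and probes within genes by diffSplice. The tests were tried on simulated data. Promoters are RefSeq entries of GRCm38.p6 (56 of 67 members matched).

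The members, families, lists and named genes were chosen with earlier results of these data known. Named with values were the 8 largest rises and falls per comparison, the 2 smallest p per family, genes picked for their roles, and the 2 smallest p per list; other members appear by family. Intensity columns carry no replicate number that ties them to a label, so replicate blocks were fitted on the authors' values. There, deviations of same-numbered samples correlated at 0.17 to 0.394 between DMSO and 2 h. Each sample's best match had the same number, which pairs these 2 groups by that check. Between 2 h and 6 h the correlations were 0.168 to 0.348, and the best match had the same number except for replicate 2 (0.168). Between DMSO and 6 h they were 0.013 to 0.121 and no best match had the same number, which does not pair them. In all 7 of 12 pairs were best matched by number. Alternatives covered background, offset, scaling, the authors' values, the block, detection filters, the probe rule, the arrays fitted, variance moderation, array weights, thresholds and each array left out.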

Additional observations from a re-analysis of the deposited data

Results flagged for a closer look

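On 9 of 132 sets of 4 arrays (44 named members in 3 groups) 1 array stood apart from the other 3 by Dixon's criterion, where chance alone flags about 1 in 20 sets. Array 8, in the 2 h group, held 4 of them: Hnrnpr was low there at 5.97, and Lsm14b (12.45), Lsm8 (12.08) and Prpf6 (11.20) were high. In DMSO, Hnrnpl was low on array 2 (13.45), Prpf38b on array 3 (9.73) and Prpf6 on array 4 (10.77), and Snrpd3 was high on array 1 (13.33). Srsf1 was low on array 6 of the 2 h group (13.45).

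U2af2 was the member whose change from DMSO differed by at least 2-fold between the times, by -1.20 on the log2 scale in the 6 h against 2 h contrast (limma adjusted p = 1.26e-07), and all 4 arrays at 6 h lay below all 4 at 2 h. Of all 9153 genes 639 passed with a step that large. No explanation was tested for these values.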

How the results depend on the processing

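Of 97 called changes of named members, 31 kept their call and direction under every alternative tried. Those alternatives include 2 stricter thresholds, an adjusted p under 0.01 and a change of at least 1.5-fold. Under at least 1 alternative other than these 2 thresholds, 28 of the 97 lost their call. The causes of the shifts below were not tested. Median scaling, which moved the median of all genes by 0.12 at 2 h and by -0.12 between the times, left 5 members lower at 2 h (main 21), 4 higher between the times (main 19) and 6 differing probes at 6 h (main 13). Requiring a 1.5-fold change left 0 higher and 4 lower at 2 h, 5 and 17 at 6 h, and 2 and 5 between the times. At an adjusted p under 0.01, 13 were lower at 2 h and 6 probes differed at 6 h. Differing probes between the times (main 3) numbered 9 without background correction, 6 with an offset of 50, 7 with the authors' values and 5 with array weights; array weights gave 10 at 2 h (main 6). Restricting to probes detected on all 12 arrays gave 1 at 2 h and 7 at 6 h. With the replicate number as a block on the authors' values 21 probes differed at 6 h and 14 between the times; beside those values without it, the block added 5 member calls and removed 0. Relative to the main result the authors' values with the block added 8 and removed 1 (Hnrnpab between the times, also lost without the block). The added calls at 6 h against DMSO, where the numbers do not pair the samples, were Hnrnpf, Hnrnph3 and Sf3b4. Of these Hnrnpf also passed on the authors' values without the block.

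Leaving out 1 array at a time gave 10 to 12 higher and 17 to 21 lower at 2 h, 18 to 19 and 32 to 34 at 6 h, and 16 to 19 and 28 to 29 between the times. Differing probes ranged from 6 to 9, from 7 (without array 9) to 13, and from 2 to 4. Arrays 1, 2, 4 and 12 each left 8 at 6 h. Sf3a1 turned from -0.30 to 0.0443 at 2 h and from -0.16 to 0.0732 at 6 h with the mean of its probes. Signal over background limits Hnrnpu, Hnrnpul1, Hnrnph3 and Hnrnpr, which were detected on fewer than 12 arrays.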
